A study of Mus musculus with 12 samples.

Results

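Genes of mucin-type glycosylation were described in intestinal epithelial cells of 2 tissues and 2 genotypes. They were taken by symbol: every gene named Galnt or Galntl, B3gnt, B3galt, B4galnt, Gcnt, Fut, St3gal, St6gal or St6galnac with its number, together with C1galt1 and C1galt1c1, on array features (transcript clusters, sets of probes for 1 transcript unit) that carry a single gene symbol. The rule used no measured value other than brightness, since of 70 such clusters the brightest over all arrays was kept for each gene. It gave 65 genes among 25341 clusters with a gene symbol, and all 65 were measured in every sample. The study deleted Nfat5, which encodes a transcription factor of the response to high salt, and compared total RNA on 12 Affymetrix Mouse Gene 2.0 ST arrays, 1 for each sample. Samples were epithelial cells released with EDTA from the ileum (S-IECs) or the colon (L-IECs) of mice aged 11 weeks on a C57BL/6J background, without a further sort. Control mice were Nfat5fl/fl and carried Nfat5 alleles flanked by loxP sites, and Nfat5IEC-KO mice carried the same alleles with Vil-Cre, a recombinase driven by the villin promoter of the intestinal epithelium. Each of the 4 groups of tissue and genotype held 3 arrays, labelled as mouse 1, 2 and 3, and no source in hand says whether a number marks the same animal in ileum and colon.

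Mucins are long proteins rich in serine and threonine, and their O-glycans begin when a polypeptide GalNAc transferase (the Galnt family) attaches N-acetylgalactosamine. Core enzymes then turn this sugar into core 1, 2, 3 or 4 structures, other transferases lengthen and branch the chains, and fucosyl- and sialyltransferases cap them. In the intestine these glycans hold water in the mucus gel, carry blood group antigens and are food and anchor for bacteria, and core 3 chains are known as a feature of the mouse colon. The symbol rule also takes in relatives that act mainly on other molecules: B3gnt5, B3galt4, B4galnt1 and St3gal5 on glycolipids, and Fut8 and St6gal1 on N-glycans.

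Promoter windows of 300 bases around a transcription start, most of them upstream, were taken from RefSeq on build GRCm38.p6 for 46 of the 65 genes, 66 windows in all. The 4 windows shown belong to the 2 genes with the largest difference in each direction between ileum and colon among genes with a single window. B3gnt5 (chr16:19759984-19760283, plus strand) and St3gal3 (chr4:118134897-118135196, minus strand) were higher in L-IECs. St3gal4 (chr9:35116815-35117114, minus strand) and B4galnt4 (chr7:141060728-141061027, plus strand) were higher in S-IECs. Each is written 5′ to 3′ in the direction of transcription, and capitals mark GC boxes (GGGCGG on either strand).
B3gnt5: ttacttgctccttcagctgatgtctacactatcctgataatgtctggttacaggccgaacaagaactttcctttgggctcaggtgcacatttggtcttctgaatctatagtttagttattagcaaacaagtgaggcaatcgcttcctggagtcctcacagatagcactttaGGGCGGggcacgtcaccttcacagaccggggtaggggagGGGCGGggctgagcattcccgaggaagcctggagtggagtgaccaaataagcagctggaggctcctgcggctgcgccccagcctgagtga
St3gal3: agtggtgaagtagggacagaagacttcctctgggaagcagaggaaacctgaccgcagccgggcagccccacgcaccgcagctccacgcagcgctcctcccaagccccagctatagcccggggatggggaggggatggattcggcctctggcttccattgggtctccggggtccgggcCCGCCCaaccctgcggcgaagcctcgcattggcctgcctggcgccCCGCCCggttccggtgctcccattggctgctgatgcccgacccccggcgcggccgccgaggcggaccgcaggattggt
St3gal4: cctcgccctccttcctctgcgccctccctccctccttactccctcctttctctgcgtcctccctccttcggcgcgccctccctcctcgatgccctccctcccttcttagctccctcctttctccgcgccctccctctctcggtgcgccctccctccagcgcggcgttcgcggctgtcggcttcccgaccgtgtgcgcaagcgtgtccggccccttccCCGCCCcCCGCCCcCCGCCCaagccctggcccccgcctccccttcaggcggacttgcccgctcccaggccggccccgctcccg
B4galnt4: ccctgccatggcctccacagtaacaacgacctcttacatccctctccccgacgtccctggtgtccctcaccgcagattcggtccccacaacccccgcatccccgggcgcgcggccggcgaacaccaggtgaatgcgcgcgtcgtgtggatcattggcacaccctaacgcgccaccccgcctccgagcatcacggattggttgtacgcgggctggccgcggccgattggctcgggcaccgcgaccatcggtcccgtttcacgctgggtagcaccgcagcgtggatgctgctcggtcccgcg
The windows of B3gnt5 and St3gal3 held 2 GC boxes each, that of St3gal4 held 3, beginning −33, −26 and −19 bases from the start site, and that of B4galnt4 none. Over the members 48.5% of windows held a GC box, against 35.7% of 32851 windows of all genes. The core letters of an NFAT5 site, TGGAAA on either strand, stood in 19.7% of the members' windows and 21.4% of all windows. For TTTATNG, letters bound by CDX2, the shares were 6.06% and 10.9%, and for CAAAGTCCA, letters bound by HNF4A, 1.52% and 0.475%. Among the members these were 4 windows of 66 for CDX2 and a single window, 1 of 66, for HNF4A. The 3 motifs other than the GC box were found on neither strand of the 4 windows shown. None of these motifs contains another.

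The deposited log2 values had array medians of 4.48 to 4.57, and arrays of the same group correlated across the 25341 clusters with Pearson r of 0.988 to 0.992. Nfat5 itself read 7.45 to 7.54 in Nfat5fl/fl and 6.90 to 7.0 in Nfat5IEC-KO L-IECs, while in S-IECs it read 8.03 to 8.17 and 7.84 to 8.09 and the genotypes overlapped, so S-IEC arrays of the deleted genotype are named by their label. The exons that its probes cover are stated nowhere in these sources. Markers of ileal enterocytes were lower in L-IECs for 12 of 12 genes in both genotypes, and markers of colonocytes were higher for 9 of 10, as the tissue labels say. One colonocyte marker, Car1, ranged from 4.32 to 9.75 among Nfat5fl/fl S-IECs, against 12.71 to 12.75 in Nfat5fl/fl L-IECs. The lymphocyte list summed to a log2 level of 8.59 to 9.23 in S-IECs and 8.08 to 8.34 in L-IECs. Among arrays labelled Nfat5IEC-KO S-IECs, replicate 2 stood apart, with 1.01 on the second principal component against −26.9 and −20.8, and counts are also given without it. The number of arrays limits the precision, and batches were not tested, since no source in hand dates the hybridizations or scans.

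Colon and ileum differed widely in these enzymes. In Nfat5fl/fl mice 31 of the 65 genes were higher in the colon by limma (adjusted p under 0.05 over all 25341 clusters), against 10.4% of all clusters, and 7 were lower, against 7.2%. Among Nfat5IEC-KO arrays 29 were higher, where 14.7% of all clusters were, and 7 were lower, where 10% were. The same 29 genes were higher in both genotypes, 29 of 31 and 29 of 29, and 6 were lower in both, 6 of 7 each time. The shares over all clusters cover any brightness, and they were larger among bright clusters. With only the 11747 clusters of a mean log2 value of at least 5 fitted, 2983 were higher and 1897 lower in Nfat5fl/fl mice. In Nfat5IEC-KO mice 4005 and 2221 were. Of the 65 genes, 41 were that bright. Fut2, the secretor fucosyltransferase, had the largest mean difference of both genotypes, above 4 on the log2 scale, followed in that mean by B3gnt5, St3gal3, B3gnt7, St6gal1, St6galnac6, B3gnt6 and St3gal6. Genotypes differed in this order, and in Nfat5fl/fl mice alone St3gal3 and B3galt5 stood above B3gnt5. Gcnt4, St3gal4, B4galnt4, Gcnt2, Galnt1 and B4galnt1 were higher in the ileum. The median log2 difference over the 65 genes was 0.23 in Nfat5fl/fl and 0.21 in Nfat5IEC-KO mice, against 0.00031 and −0.02 over all clusters. Without replicate 2 of the arrays labelled Nfat5IEC-KO S-IECs, 29 genes were higher and 8 lower in that genotype, 28 and 7 of them among those counted above. In cells pooled by tissue, fewer cells of a type and less RNA per cell cannot be told apart.

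**Figure D1:**
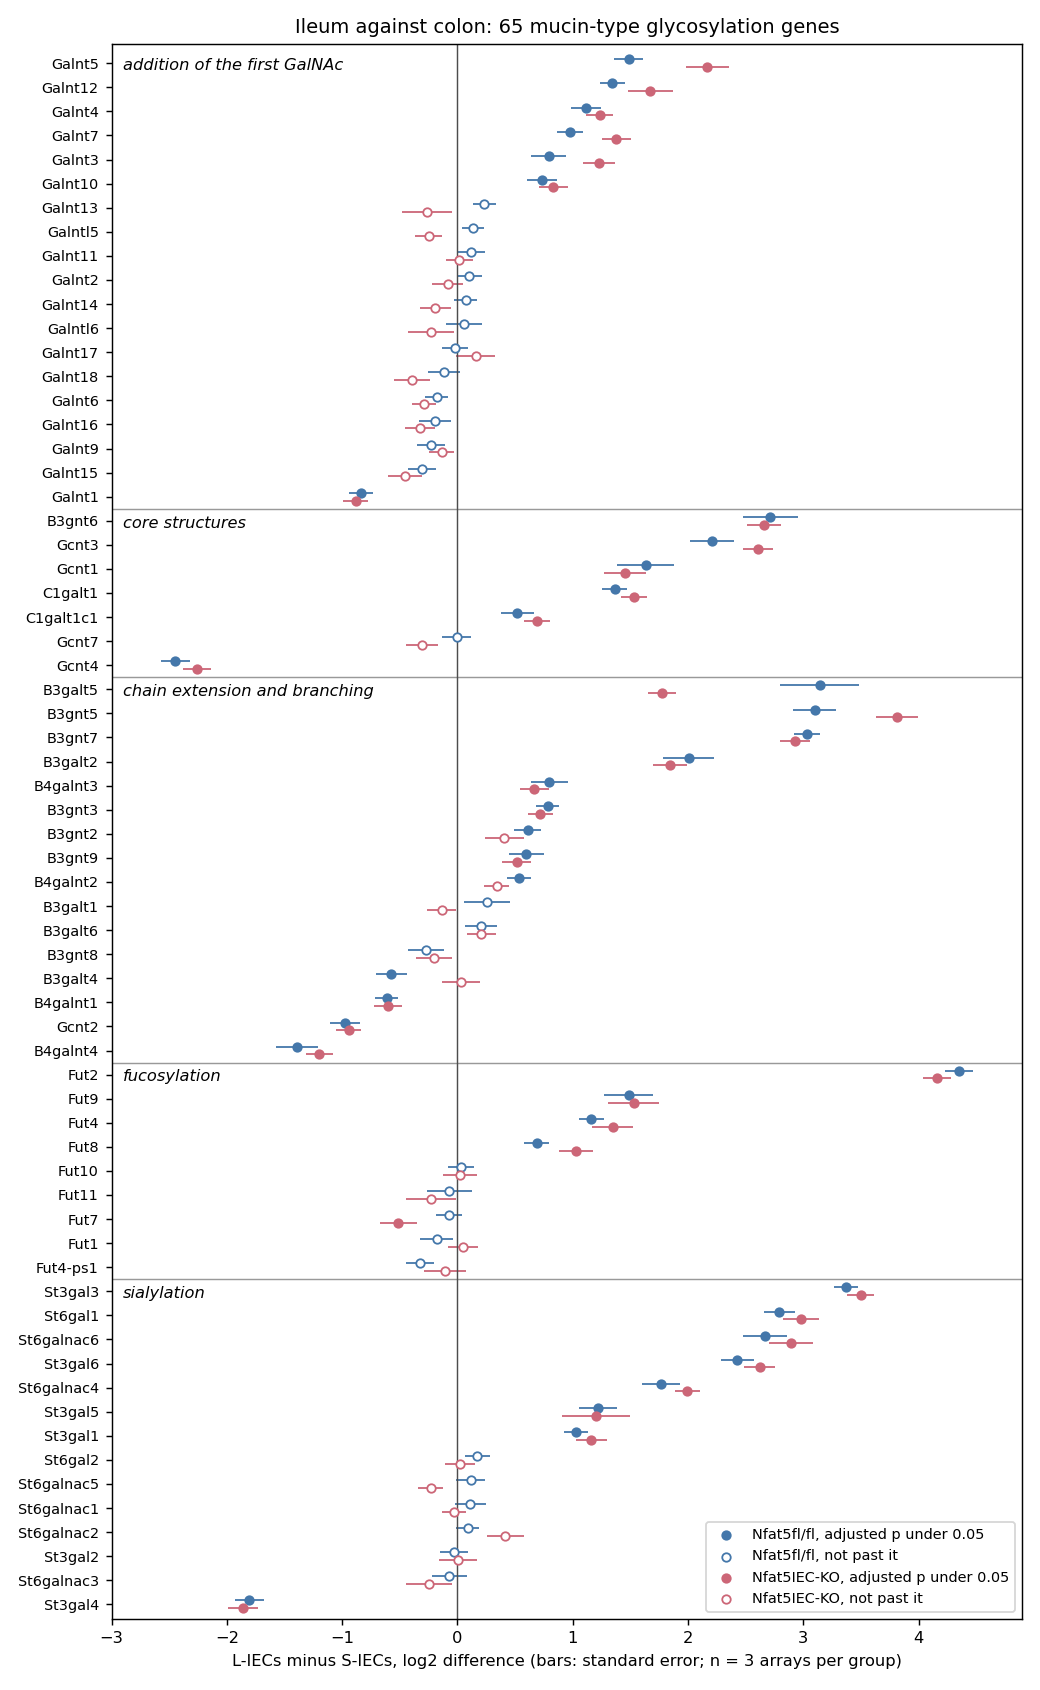
Log2 difference of L-IECs minus S-IECs (x axis) for each of the 65 genes (y axis, grouped by role) in Nfat5fl/fl (blue) and Nfat5IEC-KO (red) mice, with bars for the standard error and filled points for an adjusted p under 0.05. Filled points lie to the right of 0 for 31 and 29 genes, with Fut2 farthest at 4.35 and 4.16, and to the left for 7 in each genotype, with Gcnt4 farthest at −2.45 and −2.26.

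The polypeptide GalNAc transferases, which start each chain, split into a smaller group that differed and a larger one that did not pass the test. Of 19, 6 were higher in L-IECs in both genotypes (Galnt3, Galnt4, Galnt5, Galnt7, Galnt10 and Galnt12), 1 was lower and 12 passed in neither. Among the higher ones, log2 differences ran from 0.74 for Galnt10 to 1.49 for Galnt5 in Nfat5fl/fl mice, and from 0.83 to 2.17 for the same genes in Nfat5IEC-KO mice. Galnt7 adds GalNAc next to residues that already carry it, and differed by 0.98 and 1.38. Galnt1 (chr18:24205321-24286816), a broadly expressed member, ran the other way. It read 8.63, 8.43 and 8.55 in Nfat5fl/fl S-IECs and 8.51, 8.61 and 8.68 in Nfat5IEC-KO S-IECs. In colon it read 7.68, 7.73 and 7.69 in Nfat5fl/fl L-IECs and 7.65, 7.75 and 7.75 in Nfat5IEC-KO L-IECs. All 6 ileal values lay above all 6 colonic ones, with differences of −0.83 (standard error 0.10, 1.78-fold, adjusted p = 0.000513) in Nfat5fl/fl and −0.88 (0.11, 1.85-fold, adjusted p = 0.000323) in Nfat5IEC-KO arrays. A second cluster of Galnt1 gave −0.72 and −0.83, both past the threshold. Galnt2 and Galnt6 differed by 0.10 and −0.18 in Nfat5fl/fl mice and did not pass. Of the 12 that passed in neither genotype, 9 had a mean log2 value under 5, the limit used here for a dim gene.

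Enzymes of the core structures leaned toward the colon, with 5 of 7 higher, 1 lower and 1 past the threshold in neither genotype. The median log2 difference was 1.36 in Nfat5fl/fl and 1.45 in Nfat5IEC-KO mice. B3gnt6 (chr7:98192415-98199475), the core 3 synthase, read 4.69, 5.55 and 5.66 in Nfat5fl/fl S-IECs and 5.61, 5.25 and 5.39 in Nfat5IEC-KO S-IECs. Its values were 7.98, 7.85 and 8.20 in Nfat5fl/fl L-IECs and 7.86, 8.09 and 8.28 in Nfat5IEC-KO L-IECs. No array of one tissue reached the other, although replicate 1 of the Nfat5fl/fl ileum lay lower than the rest. B3gnt6 differed by 2.71 (standard error 0.24, 6.55-fold, adjusted p = 5.66e-05) in Nfat5fl/fl and 2.66 (0.15, 6.32-fold, adjusted p = 1.85e-06) in Nfat5IEC-KO arrays. Gcnt3, which makes core 2 and core 4 branches in mucous tissues, was higher in colon by 2.21 and 2.61. Gcnt1, the core 2 enzyme of many tissues, was higher by 1.63 and 1.45. C1galt1, the core 1 synthase, differed by 1.36 and 1.53, and C1galt1c1, the chaperone that C1galt1 needs to fold, by 0.52 and 0.69. Gcnt4 (chr13:96924344-96950914), a further core 2 enzyme as known from its human counterpart, was the exception. Its ileal values were 9.01, 8.86 and 8.83 in Nfat5fl/fl S-IECs and 8.75, 8.76 and 8.79 in Nfat5IEC-KO S-IECs. Colonic arrays read 6.53, 6.25 and 6.58 in Nfat5fl/fl L-IECs and 6.58, 6.63 and 6.31 in Nfat5IEC-KO L-IECs. The tissues were more than 2 log2 units apart in both genotypes, with differences of −2.45 (standard error 0.12, 5.45-fold, adjusted p = 1.92e-06) in Nfat5fl/fl and −2.26 (0.12, 4.79-fold, adjusted p = 1.52e-06) in Nfat5IEC-KO arrays. Of the core 2 genes, then, Gcnt1 and Gcnt3 stood higher in colon and Gcnt4 in ileum.

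Among 16 genes of chain extension and branching, 9 were higher and 4 lower in L-IECs of Nfat5fl/fl mice, and 7 and 3 in Nfat5IEC-KO mice. B3gnt5 (chr16:19760192-19772760) makes the precursor of lacto-series glycolipids. It read 5.11, 4.66 and 4.65 in Nfat5fl/fl S-IECs and 4.28, 4.42 and 4.28 in Nfat5IEC-KO S-IECs. In L-IECs it read 8.19, 7.56 and 7.95 in Nfat5fl/fl L-IECs and 8.13, 8.52 and 7.74 in Nfat5IEC-KO L-IECs. The lowest colonic array stood above the highest ileal one by over 2 log2 units, and the differences were 3.10 (standard error 0.19, 8.56-fold, adjusted p = 4.91e-06) in Nfat5fl/fl and 3.81 (0.18, 14-fold, adjusted p = 8e-07) in Nfat5IEC-KO arrays. B3gnt7 (chr1:86303221-86307305), which extends poly-N-acetyllactosamine chains of the kind found in keratan sulfate, gave 5.28, 5.37 and 5.30 in Nfat5fl/fl S-IECs and 5.36, 5.46 and 5.75 in Nfat5IEC-KO S-IECs. Its L-IEC values were 8.49, 8.19 and 8.38 in Nfat5fl/fl L-IECs and 8.47, 8.53 and 8.34 in Nfat5IEC-KO L-IECs. These groups did not overlap either, with differences of 3.03 (standard error 0.11, 8.18-fold, adjusted p = 2.75e-07) in Nfat5fl/fl and 2.93 (0.13, 7.61-fold, adjusted p = 5.6e-07) in Nfat5IEC-KO arrays. A dimmer cluster of B3gnt7 differed by only 0.66 (adjusted p = 0.0396) in Nfat5fl/fl and 0.25 (adjusted p = 0.227) in Nfat5IEC-KO arrays, the latter not past the threshold. B3galt5, which builds type 1 chains, was higher by 3.14 and 1.77, and B3galt2 by 2.00 and 1.84. B3gnt3, which extends core 1, was higher by 0.78 and 0.72, and B4galnt3, which makes LacdiNAc, by 0.80 and 0.67.

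In the same group 3 genes had higher ileal values in both genotypes. B4galnt4 (chr7:141060978-141072400), the other LacdiNAc synthase, read 6.51, 6.92 and 6.16 in Nfat5fl/fl S-IECs and 6.12, 6.22 and 6.15 in Nfat5IEC-KO S-IECs. In the colon it read 5.31, 5.04 and 5.06 in Nfat5fl/fl L-IECs and 5.14, 4.88 and 4.88 in Nfat5IEC-KO L-IECs. The tissues were separate, and its differences of −1.39 (standard error 0.18, 2.63-fold, adjusted p = 0.00076) in Nfat5fl/fl and −1.20 (0.12, 2.3-fold, adjusted p = 8.02e-05) in Nfat5IEC-KO arrays ran against those of B4galnt3. Gcnt2 (chr13:40859768-40960892), which makes the I branches of lactosamine chains, gave 7.35, 7.50 and 7.37 in Nfat5fl/fl S-IECs and 7.22, 7.27 and 7.11 in Nfat5IEC-KO S-IECs. Its colonic values were 6.50, 6.60 and 6.20 in Nfat5fl/fl L-IECs and 6.36, 6.23 and 6.18 in Nfat5IEC-KO L-IECs. It was lower in every colonic array, with differences of −0.98 (standard error 0.13, 1.97-fold, adjusted p = 0.00077) in Nfat5fl/fl and −0.94 (0.11, 1.92-fold, adjusted p = 0.000251) in Nfat5IEC-KO arrays. Dimmer clusters of Gcnt2 did not give the same result: 1 differed by −0.22 and −0.34, with the latter past the threshold, and another by −0.05 and 0.15, neither past it. B4galnt1 (chr10:127165156-127172340), which makes the gangliosides GM2 and GD2, read 9.13, 9.15 and 9.19 in Nfat5fl/fl S-IECs and 9.06, 9.11 and 8.79 in Nfat5IEC-KO S-IECs. L-IECs gave 8.58, 8.57 and 8.47 in Nfat5fl/fl L-IECs and 8.41, 8.31 and 8.43 in Nfat5IEC-KO L-IECs. Its tissues were also separate, with differences of −0.62 (standard error 0.10, 1.53-fold, adjusted p = 0.00233) in Nfat5fl/fl and −0.60 (0.12, 1.52-fold, adjusted p = 0.00638) in Nfat5IEC-KO arrays. B4galnt2, which makes the Sda antigen of the intestine, was higher in colon by 0.53 (adjusted p = 0.00662) in Nfat5fl/fl mice, and by 0.34 without passing (adjusted p = 0.0506) in Nfat5IEC-KO mice. The difference between those 2 values had an adjusted p of 0.66.

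Fucosylation held the gene with the largest difference. Fut2 (chr7:45648591-45666394) adds the alpha-1,2-linked fucose of H antigens on secreted and surface glycans. It read 5.22, 5.22 and 5.33 in Nfat5fl/fl S-IECs and 5.28, 5.06 and 5.27 in Nfat5IEC-KO S-IECs. In L-IECs its values were 9.82, 9.53 and 9.47 in Nfat5fl/fl L-IECs and 9.29, 9.54 and 9.26 in Nfat5IEC-KO L-IECs. The groups were tight and far apart, with differences of 4.35 (standard error 0.12, 20.4-fold, adjusted p = 6.49e-08) in Nfat5fl/fl and 4.16 (0.12, 17.9-fold, adjusted p = 6.02e-08) in Nfat5IEC-KO arrays. Fut4 and Fut9, which add alpha-1,3-linked fucose of the Lewis type, were higher by 1.16 and 1.48 in Nfat5fl/fl and by 1.35 and 1.53 in Nfat5IEC-KO mice. Fut8, which fucosylates the core of N-glycans, was higher by 0.69 and 1.03. Fut1, the other alpha-1,2 enzyme, was dim and differed by −0.18 and 0.05, neither past the threshold. Fut4-ps1 is annotated as a pseudogene, so its signal and that of Fut4 may not be fully told apart on an array. Their probes were not compared. Fut4-ps1 stayed dim at 3.67 ± 0.09 (SD, n = 3) in Nfat5fl/fl L-IECs and passed in neither genotype. Fut7 was lower in L-IECs of Nfat5IEC-KO mice (−0.51, adjusted p = 0.0469) but not past the threshold in Nfat5fl/fl mice (−0.08, adjusted p = 0.718), and the difference between these had an adjusted p of 0.459. For Fut11 the brightest cluster gave −0.07 and −0.23, while its other cluster gave 0.57 and 0.51, both past the threshold.

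Of 14 sialyltransferases, 7 were higher in the colon in both genotypes, 1 was lower and 6 passed in neither. St3gal3 (chr4:117932152-118134972) adds alpha-2,3-linked sialic acid, mainly to type 1 chains. It read 5.85, 5.89 and 5.84 in Nfat5fl/fl S-IECs and 5.59, 5.50 and 5.54 in Nfat5IEC-KO S-IECs. Colonic values were 9.35, 9.22 and 9.11 in Nfat5fl/fl L-IECs and 9.06, 9.18 and 8.88 in Nfat5IEC-KO L-IECs. The smallest gap between the tissues exceeded 2 log2 units, and the differences were 3.37 (standard error 0.11, 10.3-fold, adjusted p = 1.02e-07) in Nfat5fl/fl and 3.50 (0.12, 11.3-fold, adjusted p = 9.22e-08) in Nfat5IEC-KO arrays. St6gal1 (chr16:23224729-23360350), which adds alpha-2,6-linked sialic acid to N-glycans, read 4.88, 5.25 and 5.32 in Nfat5fl/fl S-IECs and 4.68, 5.11 and 4.92 in Nfat5IEC-KO S-IECs. In L-IECs it read 7.95, 7.94 and 7.93 in Nfat5fl/fl L-IECs and 8.13, 7.78 and 7.73 in Nfat5IEC-KO L-IECs. No values overlapped, with differences of 2.79 (standard error 0.13, 6.92-fold, adjusted p = 1.27e-06) in Nfat5fl/fl and 2.98 (0.15, 7.87-fold, adjusted p = 1.28e-06) in Nfat5IEC-KO arrays. St6galnac6 (chr2:32599709-32620809), a maker of disialylated glycolipids and Lewis structures, gave 6.37, 6.04 and 6.0 in Nfat5fl/fl S-IECs and 5.57, 6.28 and 6.10 in Nfat5IEC-KO S-IECs. Colonic arrays gave 9.20, 8.43 and 8.79 in Nfat5fl/fl L-IECs and 8.63, 8.93 and 9.07 in Nfat5IEC-KO L-IECs. Its spread within groups was wider, and the tissues were still separate, differing by 2.67 (standard error 0.19, 6.35-fold, adjusted p = 1.67e-05) in Nfat5fl/fl and 2.89 (0.19, 7.43-fold, adjusted p = 7.36e-06) in Nfat5IEC-KO arrays. St3gal6 (chr16:58469742-58524260), which sialylates type 2 chains, read 6.27, 5.98 and 5.83 in Nfat5fl/fl S-IECs and 5.98, 5.98 and 6.03 in Nfat5IEC-KO S-IECs. Its L-IEC values were 8.59, 8.50 and 8.28 in Nfat5fl/fl L-IECs and 8.64, 8.83 and 8.39 in Nfat5IEC-KO L-IECs. Differences for it were 2.43 (standard error 0.14, 5.38-fold, adjusted p = 4.36e-06) in Nfat5fl/fl and 2.62 (0.13, 6.15-fold, adjusted p = 1.06e-06) in Nfat5IEC-KO arrays.

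The other sialyltransferases higher in colon were St6galnac4 (1.76 and 1.99), St3gal1, which caps core 1 (1.03 and 1.16), and St3gal5, the GM3 synthase (1.22 and 1.20). St6galnac1, which makes the sialyl-Tn antigen, differed by 0.11 and −0.03 and passed in neither genotype. St3gal4 (chr9:35046576-35116864), which like St3gal6 acts on type 2 chains, was the one that was higher in ileum. Its values were 11.02, 11.01 and 11.04 in Nfat5fl/fl S-IECs and 11.40, 11.40 and 11.37 in Nfat5IEC-KO S-IECs. In colon they were 9.32, 9.37 and 8.97 in Nfat5fl/fl L-IECs and 9.38, 9.79 and 9.42 in Nfat5IEC-KO L-IECs. The lowest ileal array exceeded the highest colonic one, and the differences were −1.80 (standard error 0.13, 3.49-fold, adjusted p = 1.32e-05) in Nfat5fl/fl and −1.86 (0.13, 3.63-fold, adjusted p = 1.08e-05) in Nfat5IEC-KO arrays. St3gal4 thus ran opposite to St3gal3 and St3gal6 in both genotypes.

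**Figure D2:**
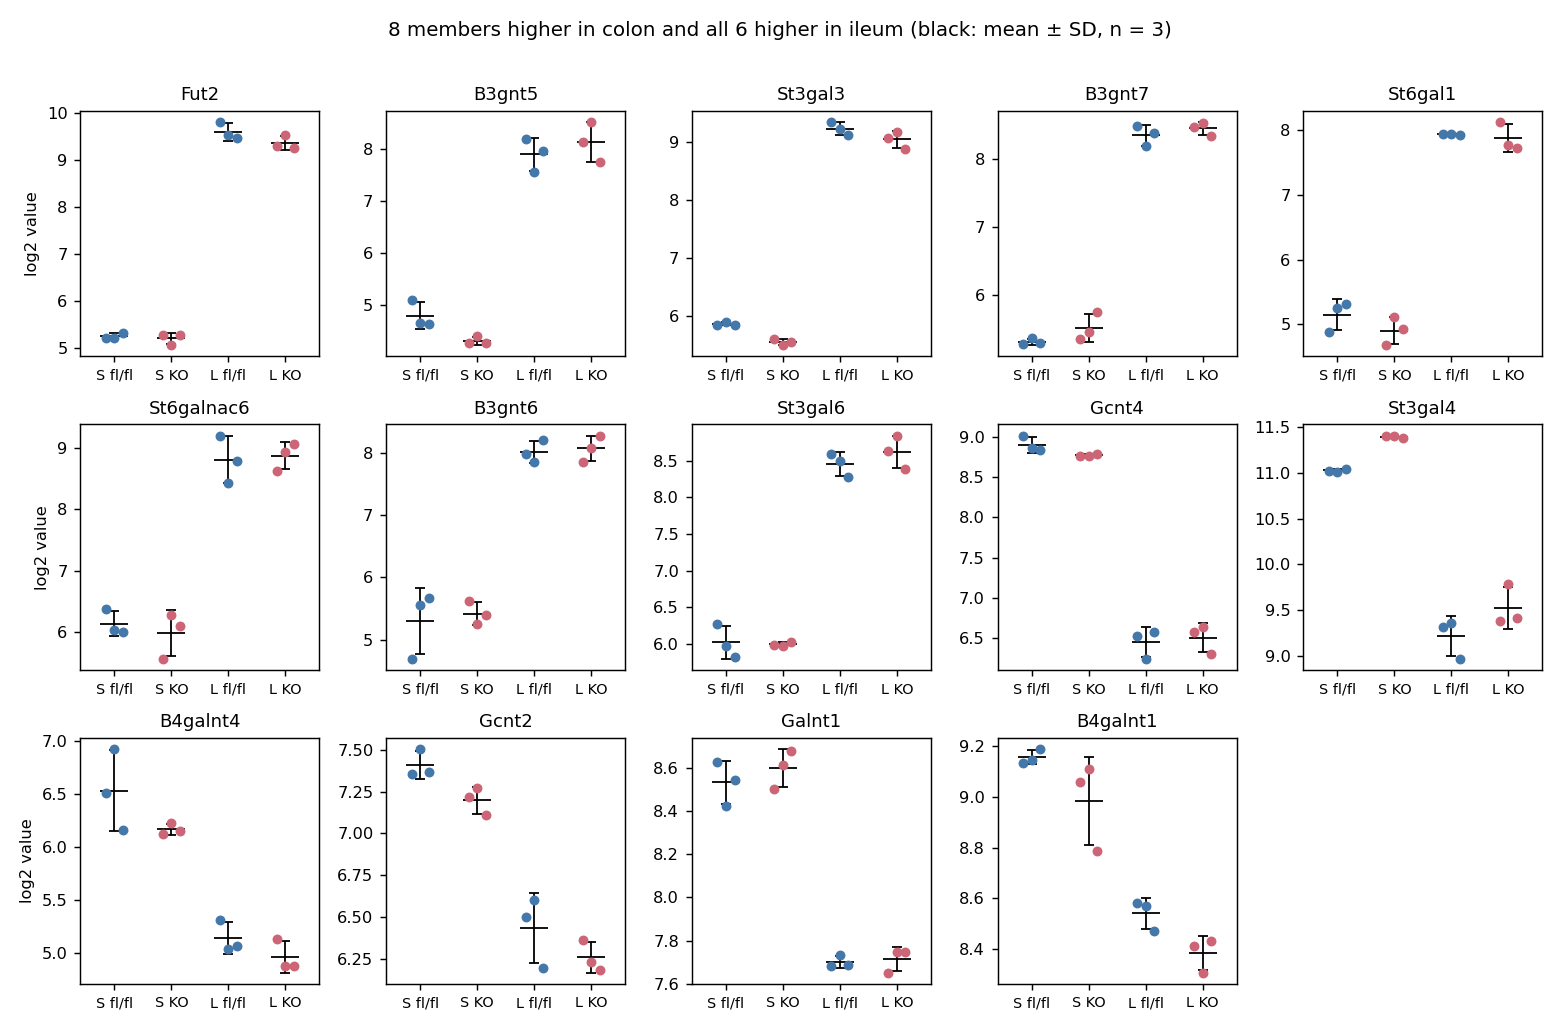
Deposited log2 value (y axis, own scale for each gene) in each of 12 arrays for 14 genes that passed between tissues in both genotypes, in ileum (S) and colon (L) of Nfat5fl/fl (fl/fl, blue) and Nfat5IEC-KO (KO, red) mice, with black marks for mean ± SD of 3 arrays. The first 8, those with the largest mean difference of both genotypes among genes higher in colon, run from Fut2 to St3gal6 and are higher in all colonic arrays than in any ileal one, and the last 6, from Gcnt4 to B4galnt1, are all the genes called higher in ileum in both genotypes.

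Of the 65 genes, 41 had a mean log2 value of at least 5 over all arrays and 24 were dimmer. Of the dim ones 5 passed the tissue test in at least 1 genotype, namely B3galt2, B3gnt9, Fut7, Fut9 and St3gal5. In all, 26 genes passed in neither genotype, and 4 passed in 1 genotype only: B3galt4, B3gnt2 and B4galnt2 in Nfat5fl/fl and Fut7 in Nfat5IEC-KO mice. B3galt4, a ganglioside enzyme, was lower in colon by 0.57 (adjusted p = 0.0156) in Nfat5fl/fl mice and differed by 0.03 in Nfat5IEC-KO mice. For B3gnt2, a maker of polylactosamine, the values were 0.61 (adjusted p = 0.00569) and 0.41 (adjusted p = 0.114). The difference between genotypes had an adjusted p of 0.342 for B3galt4 and 0.787 for B3gnt2, so neither was shown to differ between genotypes.

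Genes that feed or finish these chains were counted from lists of the pathway. Of all clusters, of any brightness, 10.4% were higher and 7.2% lower in L-IECs of Nfat5fl/fl mice, and 14.7% and 10% in Nfat5IEC-KO mice. For the supply and removal of sialic acid, 6 of 18 genes were higher and 2 lower in L-IECs of Nfat5fl/fl mice, and 7 and 3 in Nfat5IEC-KO mice. Gne, which starts sialic acid synthesis, was higher by 2.35 and 2.74, Slc35a1, the CMP-sialic acid transporter of the Golgi, by 2.07 and 2.38, and Nans by 1.81 and 2.40. Casd1, which acetylates sialic acid, was higher by 2.08 and 2.69, whereas Siae, which removes those acetyl groups, was lower by 0.65 and 1.05 (log2 differences of −0.65 and −1.05). Among genes of GDP-fucose supply, 4 of 11 measured were higher and 1 lower in Nfat5fl/fl mice, and 6 and 1 in Nfat5IEC-KO mice, with the transporter Slc35c1 higher by 0.73 and 0.99. For UDP-sugar supply, 7 of 12 measured were higher and 2 lower in Nfat5fl/fl and 6 and 2 in Nfat5IEC-KO mice, with Gfpt1, the first enzyme of the hexosamine pathway, higher by 1.15 and 1.29. Of 26 measured genes for sulfation and other terminal steps, 8 were higher and 3 lower in each genotype. There A4gnt, which adds terminal alpha-1,4-GlcNAc to mucins, was higher by 2.63 and 3.63, Abo, the blood group enzyme, by 2.34 and 2.44, and the sulfotransferase Chst4 by 2.11 and 2.72. The galactosyltransferases B4galt5 and B4galt6 were lower, by −1.23 and −1.42 in Nfat5fl/fl and −1.27 and −1.43 in Nfat5IEC-KO mice.

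Mucins and their partners also differed between the tissues. The shares over all clusters are those given for the pathway lists above. Of 17 measured genes on that list, 7 were higher and 1 lower in L-IECs of Nfat5fl/fl mice and 8 and 1 in Nfat5IEC-KO mice, with Muc2, the gel-forming mucin of the intestine, higher by 0.92 and 1.27 and the surface mucin Muc4 by 2.19 and 2.78. Spdef, a transcription factor of goblet cells, was higher by 1.34 and 1.45. The marker list of goblet cells, which shares mucus genes with that list, had 11 of 16 genes higher and 1 lower in Nfat5fl/fl mice, and 14 and 0 in Nfat5IEC-KO mice. Its summed log2 level was 14.36 to 14.50 in Nfat5fl/fl S-IECs, 13.67 to 14.45 in Nfat5IEC-KO S-IECs, 15.13 to 15.30 in Nfat5fl/fl L-IECs and 15.21 to 15.38 in Nfat5IEC-KO L-IECs. Paneth markers summed to 13.75 to 14.81 in S-IECs and 9.24 to 11.84 in L-IECs. The part of these cells in the enzyme differences was not tested.

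**Figure D3:**
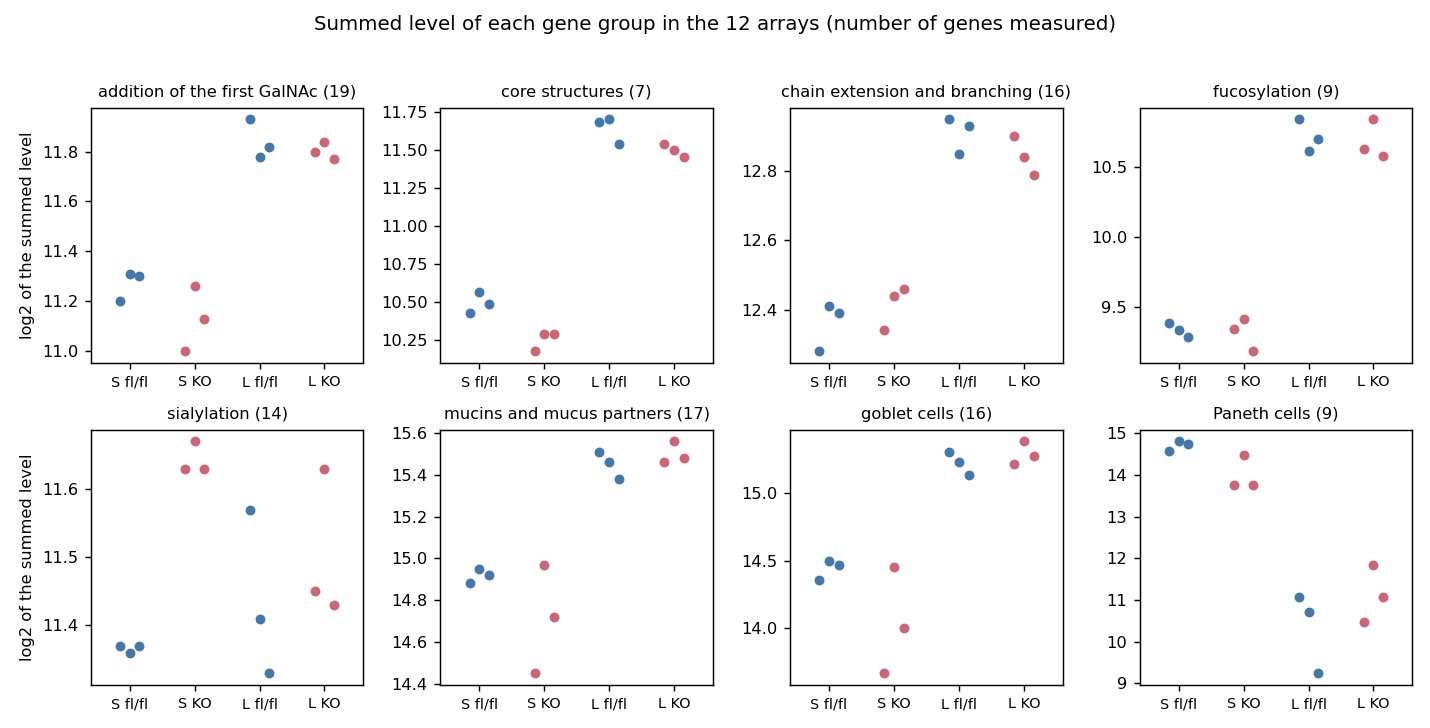
Log2 of the summed level (y axis, own scale for each panel) in each of 12 arrays for the 5 roles of the enzymes, for mucins with their partners and for markers of goblet and Paneth cells, in ileum (S) and colon (L) of Nfat5fl/fl (fl/fl, blue) and Nfat5IEC-KO (KO, red) mice. Fucosylation genes sum to 9.19 to 9.42 in ileum and 10.58 to 10.84 in colon, core genes to 10.18 to 10.57 and 11.45 to 11.70, and goblet markers read 13.67 to 14.45 in Nfat5IEC-KO S-IECs. The sialylation sum, in which bright genes weigh most, does not separate the tissues, at 11.36 to 11.67 in ileum and 11.33 to 11.63 in colon. The mean log2 value of the same 14 genes, not drawn, does, at 5.42 to 5.585 in ileum and 6.434 to 6.583 in colon.

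The genotypes were compared within each tissue, as Nfat5IEC-KO minus Nfat5fl/fl, on the same arrays as the tissue comparisons. In S-IECs 0 of the 65 genes passed an adjusted p under 0.05 in limma in either direction, where 0.00789% of all clusters were higher and 0% lower. At an unadjusted p under 0.05, 5 genes were higher and 8 lower, against 5.81% and 8.23% of all clusters, and the methods' t-test gave 4 and 7. Groups did not overlap for 5 genes with higher values in the arrays labelled Nfat5IEC-KO, 7.69% of members against 9.8% of clusters, and for 13 with lower values, 20% against 10.4%. The median log2 difference was 0.01 for the 65 genes and 0.01 for all clusters. Without replicate 2 of that group, 0 genes passed, and 5 higher and 9 lower reached an unadjusted p under 0.05.

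B3galt5 (chr16:96235801-96319859), the type 1 chain enzyme, had the smallest p of the members in S-IECs. It read 4.17, 3.75 and 4.54 in Nfat5fl/fl S-IECs and 5.09, 5.24 and 5.11 in Nfat5IEC-KO S-IECs. The arrays labelled Nfat5IEC-KO were all above the controls, with a log2 difference of 0.99 (standard error 0.18, 95% interval 0.58 to 1.41, adjusted p = 0.13). With limma's intensity trend and robust variance the adjusted p was 0.0335, and with dim clusters left out 0.044. Gcnt3 (chr9:70031495-70039890), the core 2 and core 4 enzyme, read 7.92, 8.62 and 8.01 in Nfat5fl/fl S-IECs and 7.30, 7.70 and 7.37 in Nfat5IEC-KO S-IECs. Every value was lower than every control value, and the difference was −0.73 (standard error 0.20, 95% interval −1.17 to −0.28, adjusted p = 0.164). St3gal4, of which the tissue values are given above, differed by 0.37 (standard error 0.10, 95% interval 0.14 to 0.59, adjusted p = 0.168) and its groups were separate, with SDs of 0.02 and 0.01 (n = 3). Its adjusted p was 0.0249 with the trend and robust setting. Galnt5 (chr2:57997850-58041027), a GalNAc transferase, read 6.06, 6.45 and 6.31 in Nfat5fl/fl S-IECs and 5.38, 5.96 and 5.77 in Nfat5IEC-KO S-IECs. All 3 values of the labelled genotype lay below the controls, with a difference of −0.57 (standard error 0.17, 95% interval −0.96 to −0.18, adjusted p = 0.192).

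By role, GalNAc transferases made up 19 of the 65 genes and 4 of the 8 with lower values and an unadjusted p under 0.05 in S-IECs. Over all 19, 13 differences were positive and 6 negative, with a median of 0.09 against 0.01 over all clusters. The 4 lower ones were Galnt3 (−0.51), Galnt5, Galnt7 (−0.36) and Galnt12 (−0.53), with adjusted p-values of 0.221, 0.192, 0.26 and 0.273. The others were Gcnt3, B3gnt5 (−0.48, adjusted p = 0.196), St3gal3 (−0.32, adjusted p = 0.222) and St3gal5 (−0.38, adjusted p = 0.232). Higher at that limit were B3galt5, St3gal4, B3gnt9 (0.38), Galntl5 (0.25) and St6galnac5 (0.42), the last 3 being dim. In the same comparison 11 of 16 goblet markers and 9 of 9 Paneth markers measured were lower at an unadjusted p under 0.05, none past the adjusted threshold, with median log2 differences of −0.46 and −1.13. Their summed levels reached 14.45 and 14.47 in replicate 2 of the labelled genotype and were lower in the other 2 arrays, down to 13.67 and 13.75. Of 10 colonocyte markers measured, 5 were lower and 2 higher at that limit, with a median of −0.23, and Car1, a carbonic anhydrase of the colon, gave −3.07 (adjusted p = 0.278). Their summed level was 13.51 to 13.64 in controls and 13.50 to 13.60 in the labelled genotype. Of 12 markers of ileal enterocytes, 5 were higher and 0 lower, with a median of 0.15 and summed levels of 15.12 to 15.23 in controls and 15.30 to 15.34 in the labelled genotype. All 8 lower enzymes were among the 29 of 65 members higher in colon in both genotypes. The same S-IEC arrays enter both comparisons, so this overlap is partly built in and nothing is concluded from it. The part of these cell types in the enzyme values was not tested.

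**Figure D4:**
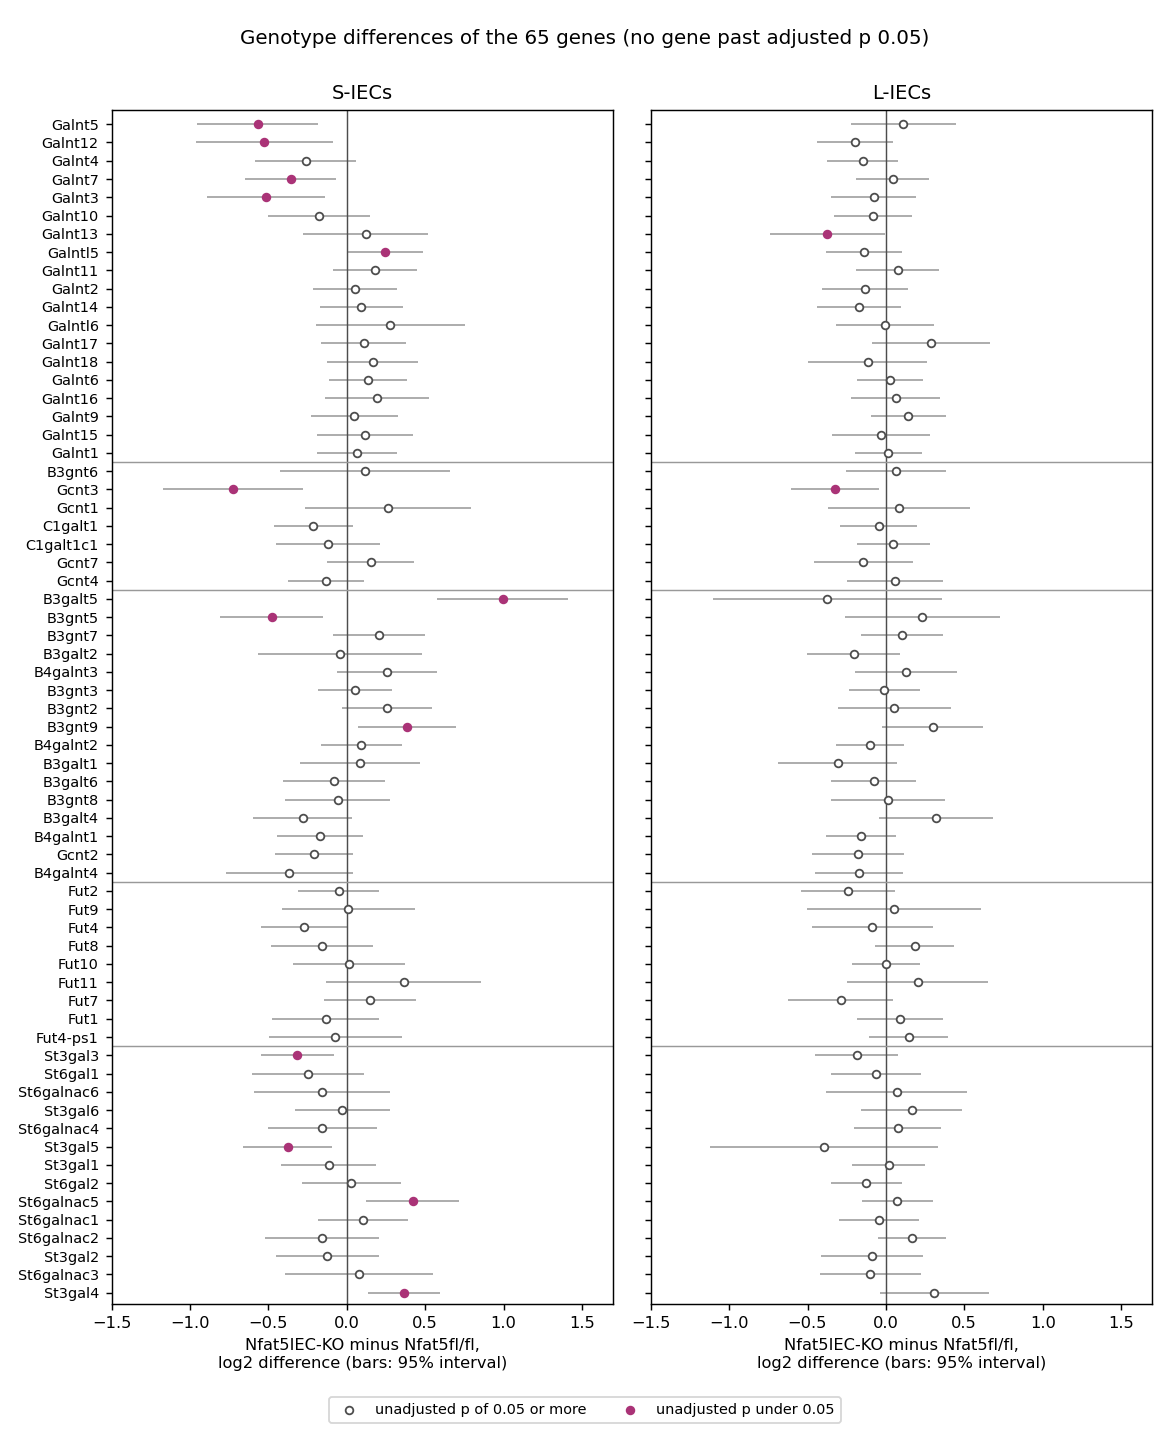
Log2 difference of Nfat5IEC-KO minus Nfat5fl/fl (x axis, bars for the 95% interval) for each of the 65 genes (y axis, in the same order by role as for the tissues) in S-IECs (left) and L-IECs (right), with filled points for an unadjusted p under 0.05. In S-IECs 5 filled points lie above 0 and 8 below, from −0.73 for Gcnt3 to 0.99 for B3galt5, and in L-IECs 2 lie below 0.

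In L-IECs 0 of the 65 genes passed the adjusted threshold, as did 0% of all clusters in both directions. At an unadjusted p under 0.05, 0 genes were higher and 2 lower, against 2.97% and 3.35% of all clusters, and the methods' t-test gave 1 and 1. Groups without overlap numbered 3 higher and 5 lower, 4.62% and 7.69% of members against 5.83% and 6.24% of clusters. Gcnt3 read 10.41, 10.59 and 10.18 in Nfat5fl/fl L-IECs and 10.13, 9.99 and 10.07 in Nfat5IEC-KO L-IECs. These were again separate, with a difference of −0.32 (standard error 0.12, 95% interval −0.61 to −0.04, adjusted p = 0.769). Galnt13 (chr2:54436211-55118309), known mainly from brain, was dim at 3.26, 3.33 and 3.27 in Nfat5fl/fl L-IECs and 2.55, 3.23 and 2.96 in Nfat5IEC-KO L-IECs. It differed by −0.37 (standard error 0.16, 95% interval −0.74 to −0.00, adjusted p = 0.788). B3gnt9 (chr8:105252638-105255250) read 5.12, 4.87 and 4.71 in Nfat5fl/fl L-IECs and 5.36, 5.22 and 5.02 in Nfat5IEC-KO L-IECs. Its groups overlapped, with a difference of 0.30 (standard error 0.14, 95% interval −0.02 to 0.62, adjusted p = 0.803). St3gal4 differed by 0.31 (standard error 0.15, 95% interval −0.04 to 0.66, adjusted p = 0.82), and the lowest Nfat5IEC-KO array stood at 9.38 against 9.37 for the highest control.

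Separate genotype groups with the same direction in both tissues were found for 3 genes, 4.62% of members against 1.79% of all clusters. Separate groups in opposite directions were found for 0 genes, against 1.08% of clusters. Gcnt3 was lower in the Nfat5IEC-KO arrays of ileum and colon, by −0.73 and −0.32. B4galnt1 was lower too, by −0.17 (standard error 0.12, 95% interval −0.45 to 0.10, adjusted p = 0.574) and −0.16 (standard error 0.10, 95% interval −0.38 to 0.06, adjusted p = 0.847). St3gal4 was higher by 0.37 and 0.31. None of the 3 passed the adjusted threshold in either tissue.

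The difference between the genotype effects of ileum and colon was tested on all 12 arrays. No member passed, as did 0% of all clusters, and at an unadjusted p under 0.05 there were 4 genes with a more positive effect in ileum and 4 with a more negative one, against 4.53% and 6.3% of all clusters. B3galt5 read 7.75, 7.71 and 6.42 in Nfat5fl/fl L-IECs and 6.75, 7.10 and 6.92 in Nfat5IEC-KO L-IECs. Here replicate 3 of the controls was lower than the rest, the genotypes overlapped, and the difference from the effect in ileum was 1.37 (standard error 0.41, 95% interval 0.48 to 2.25, adjusted p = 0.263). Without that control array it was 1.80 (adjusted p = 0.14). Galnt5 read 7.85, 7.73 and 7.70 in Nfat5fl/fl L-IECs and 7.59, 8.15 and 7.86 in Nfat5IEC-KO L-IECs. Its effects differed by −0.68 (standard error 0.24, 95% interval −1.20 to −0.16, adjusted p = 0.324). Galntl5 (chr5:25181440-25220297), a relative known from testis, read 3.32, 3.28 and 3.24 in Nfat5fl/fl S-IECs and 3.47, 3.49 and 3.62 in Nfat5IEC-KO S-IECs. Colonic arrays gave 3.44, 3.39 and 3.42 in Nfat5fl/fl L-IECs and 3.16, 3.43 and 3.24 in Nfat5IEC-KO L-IECs. These were all dim values, and the effects differed by 0.38 (standard error 0.14, 95% interval 0.08 to 0.69, adjusted p = 0.34). B3galt4 (chr17:33949912-33951488) read 5.25, 5.25 and 5.44 in Nfat5fl/fl S-IECs and 4.78, 5.09 and 5.22 in Nfat5IEC-KO S-IECs. In colon it read 4.86, 4.50 and 4.85 in Nfat5fl/fl L-IECs and 4.81, 5.03 and 5.33 in Nfat5IEC-KO L-IECs. The genotypes overlapped there, and the effects differed by −0.60 (standard error 0.22, 95% interval −1.08 to −0.12, adjusted p = 0.342).

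**Figure D5:**
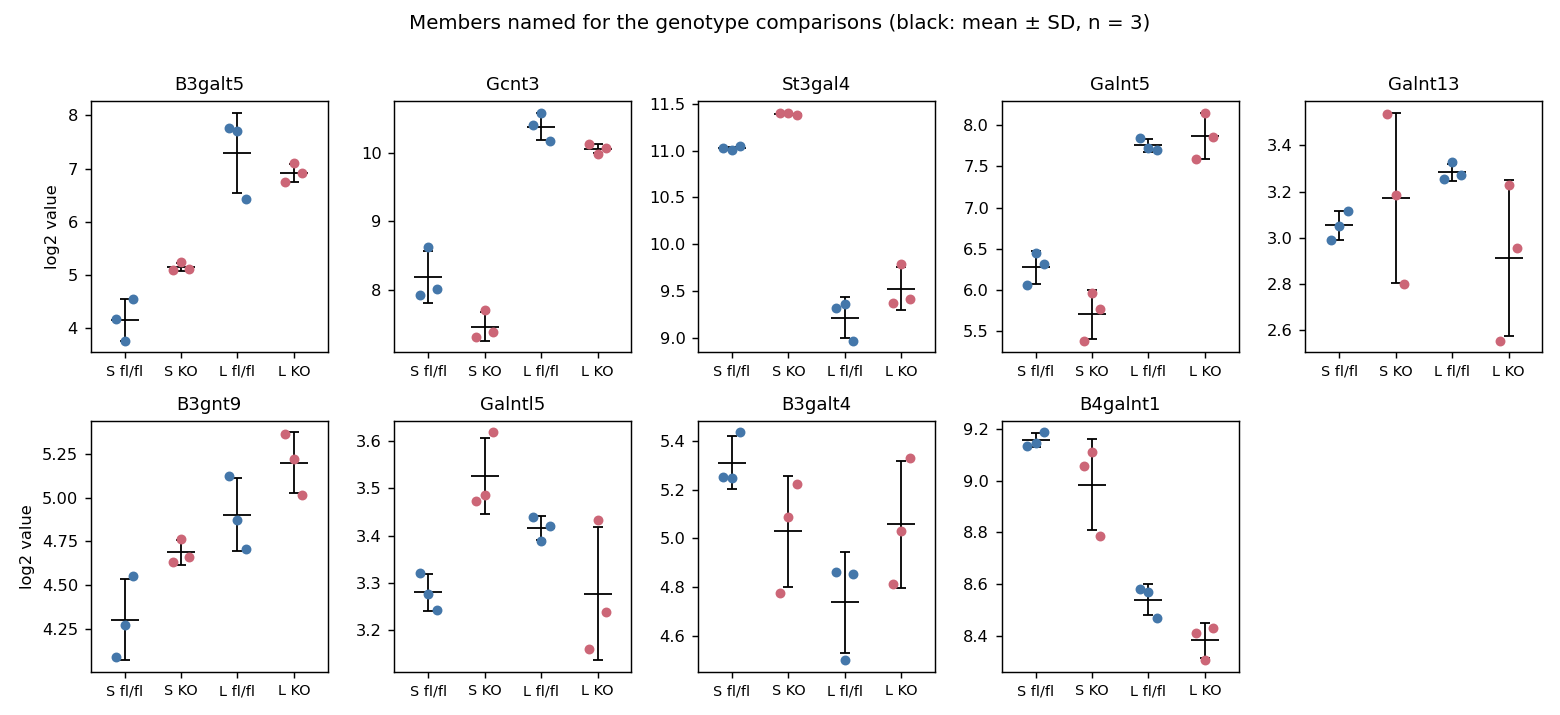
Deposited log2 value (y axis, own scale for each gene) in each of 12 arrays for the 9 genes named in the genotype comparisons, in ileum (S) and colon (L) of Nfat5fl/fl (fl/fl, blue) and Nfat5IEC-KO (KO, red) mice, with black marks for mean ± SD of 3 arrays. B3galt5 and St3gal4 stand higher and Gcnt3 and Galnt5 lower in ileal KO arrays than in ileal controls, and in colon the genotypes of B3galt5 and Galnt5 overlap.

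Genes that supply or finish the chains gave no call by genotype either: 0 of the genes measured on the 5 pathway lists passed in either tissue. At an unadjusted p under 0.05 in S-IECs, where 8.23% of all clusters were lower and 5.81% higher, 4 of 18 genes of sialic acid supply and removal were lower and 2 higher. UDP-sugar supply had 0 of 12 lower and 2 higher, GDP-fucose supply 2 of 11 lower and 1 higher, and sulfation with other terminal steps 4 of 26 lower and 2 higher. Gne read 7.61 to 7.92 in controls and 7.26 in each array labelled Nfat5IEC-KO, a log2 difference of −0.47 (adjusted p = 0.149). Nans, Casd1 and Cmas, which also act in making or modifying sialic acid, differed by −0.44, −0.45 and −0.37. Over all 18 genes of that list, 6 differences were positive and 12 negative, from −0.47 to 0.39. Of the mucin list, 5 of 17 were lower and 1 higher, with Muc4 at −0.70 (adjusted p = 0.191) and Muc2 at −0.41 (adjusted p = 0.397). A4gnt differed by −1.10 (adjusted p = 0.137), with 4.78 to 5.35 in controls and 3.67 to 4.55 in the labelled genotype. Muc5b was higher by 0.37 (adjusted p = 0.277), and Gmds, the first enzyme from GDP-mannose to GDP-fucose, was at −0.58 (adjusted p = 0.139).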

How the data were processed

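Total RNA of 12 samples was measured on Affymetrix arrays, 3 for each of 4 groups given by the labels. The authors deposited log2 summaries for 41345 transcript clusters, made in Transcriptome Analysis Console against mm10 per the submitters' processing notes. How they were normalized, and the version of that program, is not stated in these sources. Of the clusters, 25341 carry a gene symbol in the platform's annotation, 1820 of them several. All 25341 were tested without a filter, and coordinates came from RefSeq's annotation of GRCm38.p6, to which all 65 members matched. Levels of single genes were not compared with each other, apart from the common limit for a dim gene.

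Comparisons used limma 3.58.1 in R 4.3.3 (lmFit, eBayes, Benjamini-Hochberg over all 25341 clusters, adjusted p under 0.05) on the arrays of the 2 groups compared. All 12 arrays were used for the difference between the genotype effects of ileum and colon. The fit was tested on simulated data with independent noise, which held no batch and no outlying array. Labels number separate mice within each group, and the same numbers recur in ileum and colon. The main tissue fits treated the arrays as independent, and p-values measure the spread between these samples alone. A list's summed level is log2 of the sum of its genes' linear values in an array, so its brightest genes weigh most. The members and all lists were chosen with earlier results of these data known. Named genes are the 8 members with the largest mean difference in each direction among those passing in both genotypes, the 4 with the smallest p in each genotype comparison, and those separate in both tissues; other genes named by role were chosen after their values were seen. Alternatives were a block on the replicate number, 1 fit of all arrays, limma's trend with robust variance, quantile normalization, median centring, a mean log2 value of at least 5, every cluster, the methods' t-test, other clusters of a gene and each array left out.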

Additional observations from a re-analysis of the deposited data

Results flagged for a closer look

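Galntl5, a dim member at a mean log2 value near 3, was marked because its tissue difference ran in opposite directions in the genotypes without overlap. All colonic values lay above all ileal values in Nfat5fl/fl arrays (log2 difference 0.14) and below them in Nfat5IEC-KO arrays (−0.25). The difference between these effects was 0.38 (standard error 0.14), with an unadjusted p of 0.016 and an adjusted p of 0.34 in limma, and it did not pass the threshold.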

How the results depend on the processing

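With limma's trend and robust variance 2 members were higher by genotype in S-IECs (B3galt5 and St3gal4), with dim clusters left out 1 (B3galt5), and 0 under the other alternatives. Members lower by genotype in S-IECs, and members in either direction by genotype in L-IECs, numbered 0 under every alternative run, each array left out included. The same held for the difference between the genotype effects of ileum and colon. Over all clusters the S-IEC counts moved from 2 higher and 0 lower to 127 and 444 with all 12 arrays in 1 fit, 166 and 314 with trend and robust variance, 74 and 183 without dim clusters, and 23 and 203 without replicate 2 of Nfat5IEC-KO. Tissue counts stayed within 1.5 times: 26 to 31 higher and 6 to 7 lower in Nfat5fl/fl, 27 to 31 and 6 to 9 in Nfat5IEC-KO mice. A dimmer cluster of Gcnt2 turned its difference in Nfat5IEC-KO mice from −0.94 to 0.15 (adjusted p = 0.425), and one of B3gnt7 gave 0.25 (adjusted p = 0.227) against 2.93. The cause was not tested.

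With the replicate number as a block, tissue counts were 30 higher and 7 lower in Nfat5fl/fl and 29 and 7 in Nfat5IEC-KO mice, and genotype counts were 0. Deviations of arrays with the same number correlated by −0.04 to 0.10, between tissues and between genotypes. With 3 arrays for each group these values cannot say whether a number marks the same animal. Depth does not apply to arrays, and with 3 arrays for each group the 95% interval of the B3galt5 difference in S-IECs ran from 0.58 to 1.41.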
